A study of Homo sapiens with 4 samples.

Results

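The peaks of CTCF and of histone H3 acetylated at lysine 27 (H3K27ac) were described at 7 intervals of the human genome that hold 9 imprinted genes: H19 and IGF2, KCNQ1OT1, DLK1 and MEG3, SNRPN, PEG10, MEST, and GNAS. A peak belonged to an interval when it shared at least 1 base with it after the interval had been widened by 20 kb on each side. This gave 30 of 36152 CTCF peaks and 15 of 50364 H3K27ac peaks, 45 of 86516 peaks in all. Both lists come from DU145, an established prostate cancer cell line from a brain metastasis, with 1 immunoprecipitated library for CTCF and 1 for H3K27ac. The cells grew in RPMI medium with serum, and the labels name no drug, hormone or genetic change in either group. Input chromatin of DU145 and of LNCaP, another prostate cancer line, completes the 4 libraries and was not analysed here. Neither mark has a replicate, so no difference below carries a replicate error and no test between groups was made.

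Imprinted genes are expressed mainly from the copy inherited from one parent, and the choice is set by DNA methylation at imprinting control regions. CTCF is a zinc finger protein that binds a long GC-rich motif, acts at insulators and loop anchors, and is kept off some of its sites by DNA methylation. At the control region between H19 and IGF2 it binds the unmethylated maternal copy and separates IGF2 from enhancers on the far side of H19. H3K27ac marks the nucleosomes of active promoters and enhancers. The peak lists do not separate the parental copies, and neither methylation nor RNA was measured in these files.

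Promoter sequences are shown for MEST and GNAS, the genes whose interval began within 1 kb of a CTCF summit and whose promoter is in the RefSeq table used. Of the 9 genes, 5 had an entry (H19, MEG3, SNRPN, MEST and GNAS), with 19 windows of 300 bases, from 250 before to 50 after a start. PEG10, DLK1, IGF2 and KCNQ1OT1 had none. The windows come from RefSeq on GRCh38.p14, whereas the peaks are on hg19, so a window was tied to a peak only through the start of the gene, which the intervals give rounded to 1 kb. Capitals mark a match to the letters CCNNNAGNNGGC on either strand, a loose form of the CTCF core motif. The plus-strand windows at the first start of MEST (chr7:130485925-130486224) and of GNAS (chr20:58839498-58839797) read:
MEST: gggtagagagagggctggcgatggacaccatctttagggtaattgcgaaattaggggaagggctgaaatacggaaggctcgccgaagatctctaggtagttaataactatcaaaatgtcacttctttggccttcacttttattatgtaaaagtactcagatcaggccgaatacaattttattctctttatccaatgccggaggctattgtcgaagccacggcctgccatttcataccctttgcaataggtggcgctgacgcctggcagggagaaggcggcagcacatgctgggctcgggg
GNAS: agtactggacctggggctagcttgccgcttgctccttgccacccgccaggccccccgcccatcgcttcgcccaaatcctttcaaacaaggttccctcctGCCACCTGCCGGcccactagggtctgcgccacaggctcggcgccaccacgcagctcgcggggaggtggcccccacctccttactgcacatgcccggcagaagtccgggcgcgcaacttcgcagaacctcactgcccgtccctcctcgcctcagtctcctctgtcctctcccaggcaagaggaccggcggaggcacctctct

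The GNAS window held 1 match, on the minus strand at bases 100 to 111 of the window, and the MEST window held none. The MEST window does hold a stretch that misses the loose form by its first letter only. Near matches of this kind were not counted in any window. Matches occurred in 6 of the 19 windows, against 10.6% of 35116 promoter windows of the same length. A tighter form, CCANNAGNNGGC, which is contained in the loose one, matched 1 of the 19 windows, at another start of GNAS, against 2.41% of all windows. Some of the 19 windows overlap each other, so they are not independent sequences. Overlapping windows of MEST, from 130491808 and from 130491835, held the same loose match, which was counted in each. The GC content was 49.0% with 13 CpG dinucleotides in the MEST window and 67.3% with 21 in the GNAS window. The medians over all windows were 58.7% and 14. A match describes these letters only and is not a measured binding site. Likewise, a window without a match is not shown to lack a site.

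Pooled over the intervals, CTCF peaks were denser than over the autosomes, while H3K27ac peaks were about as dense as elsewhere. The intervals were chosen as imprinted loci with known CTCF control. A CTCF excess was therefore favoured by the choice and is a description, not a test. CTCF density was highest at H19 and IGF2 and fell below the autosomal value at KCNQ1OT1 and SNRPN, which held 1 peak each. The widened intervals add up to 931 kb and held 32.2 CTCF and 16.1 H3K27ac peaks per Mb. All autosomes together had 12.4 and 17.5. The CTCF density rests in large part on 1 interval: without H19 and IGF2 it was 20.7 per Mb, and the H3K27ac density was also 20.7. The H3K27ac density rests on GNAS in the same way, and without it was 11.0 per Mb. By interval, the number of CTCF peaks was 15 at H19 and IGF2, 5 at DLK1 to MEG3, 5 at GNAS, 2 at MEST, and 1 each at KCNQ1OT1, SNRPN and PEG10. In CTCF peaks per Mb, KCNQ1OT1 (7.58) and SNRPN (5.13) lay below the autosomal 12.4. Every other interval lay above it, from 18.9 at PEG10 to 72.8 at H19 and IGF2. The widened intervals with 1 peak, KCNQ1OT1, SNRPN and PEG10, were 132, 195 and 53 kb long, and MEST had 2 in 60 kb. With counts this small, their place above or below the autosomal value depends strongly on interval length and is not settled. H3K27ac peaks numbered 6 at GNAS, 3 at DLK1 to MEG3, 3 at SNRPN, 2 at PEG10, 1 at MEST, and 0 at both H19 and IGF2 and KCNQ1OT1. The order of the intervals thus differed between the marks, with the interval richest in CTCF holding no acetylated region.

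**Figure D1:**
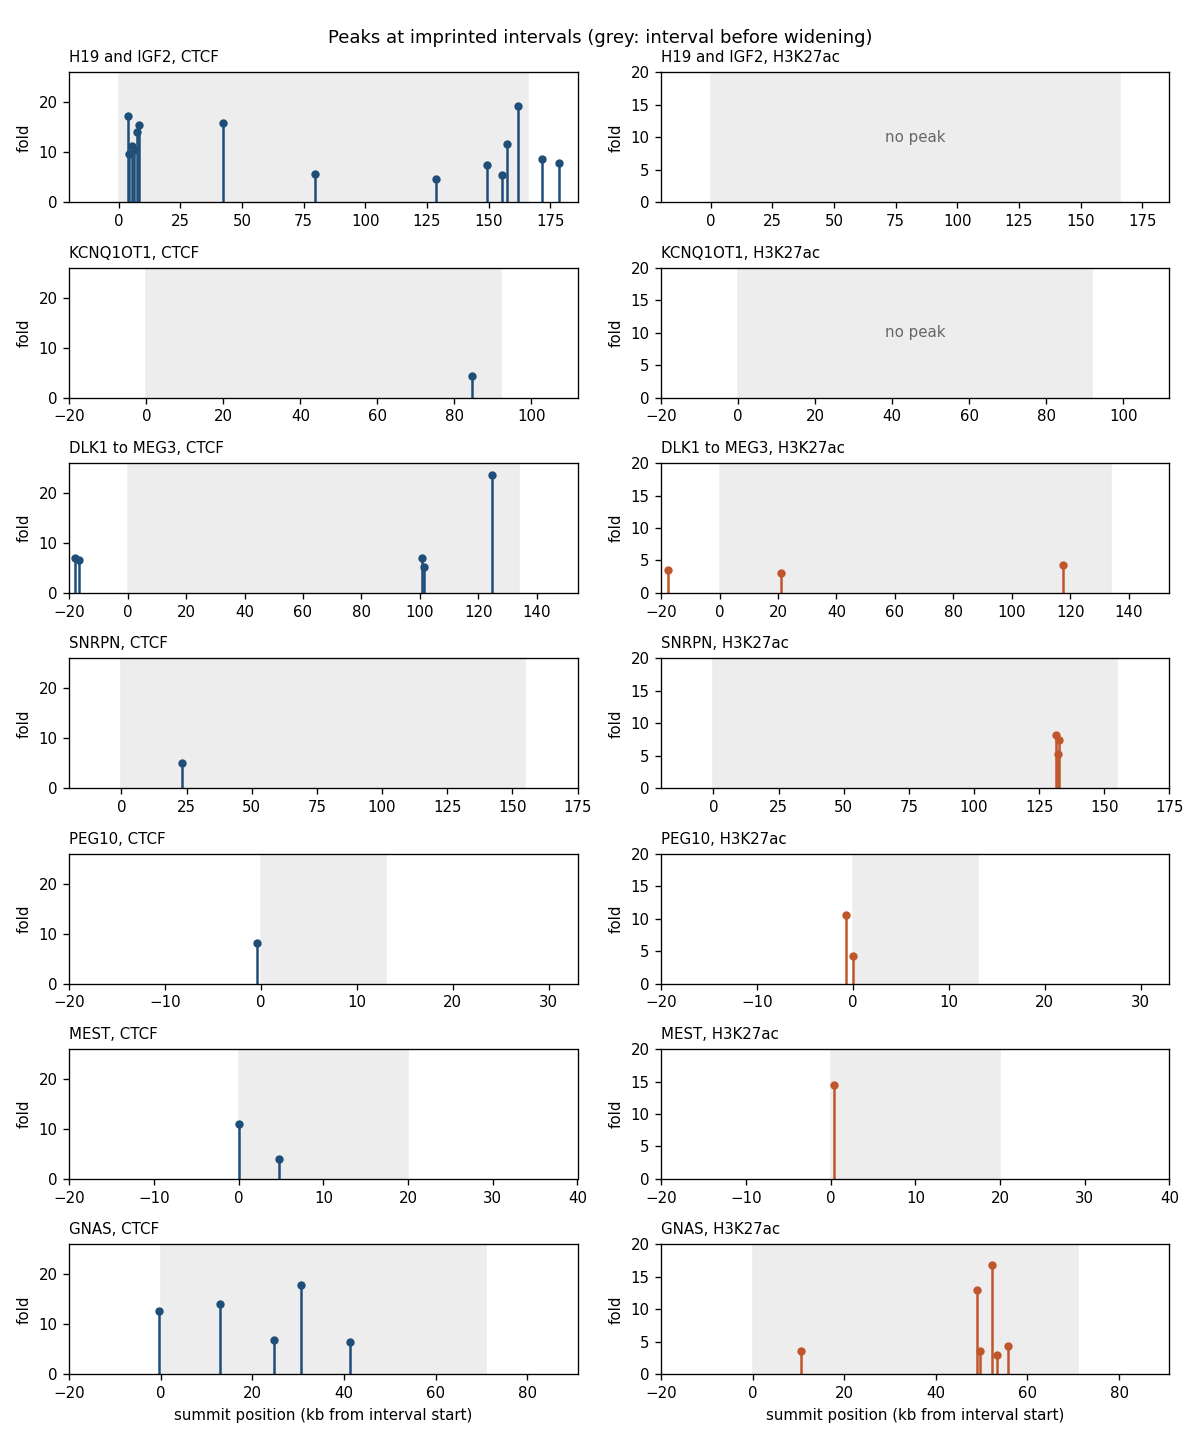
CTCF peaks (left) and H3K27ac peaks (right) at the 7 intervals. The horizontal axis gives the summit position in kb from the interval start, and the vertical axis the deposited fold enrichment. Each stem is 1 peak and grey marks the interval before widening. The 15 CTCF peaks of H19 and IGF2 face an empty H3K27ac panel, and at GNAS the CTCF peaks lie to the left of most acetylated regions.

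Fold enrichment is the authors' value for a peak, the signal at its summit over the local background. Among the 30 CTCF peaks it ran from 3.92 to 23.6 with a median of 8.41, beside a median of 9.52 in the whole list. Of these peaks, 14 lay above the list's median, which splits the list evenly by definition, and 24 reached a −log10 q of 10, against 79.8%. A single member exceeded the 90th percentile of the list, which is 19.8 (9.98% of all CTCF peaks do). For the 15 H3K27ac peaks fold enrichment ran from 2.91 to 16.8 with a median of 4.31, beside 4.55 in the whole list. Of these, 7 lay above the list's median, 6 reached a −log10 q of 10 (43.4%), and 0 exceeded the 90th percentile (9.99%), which at 16.8 lay just above the highest member. In both lists the members were therefore spread over the range of ordinary peaks and did not gather among the strongest.

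**Figure D2:**
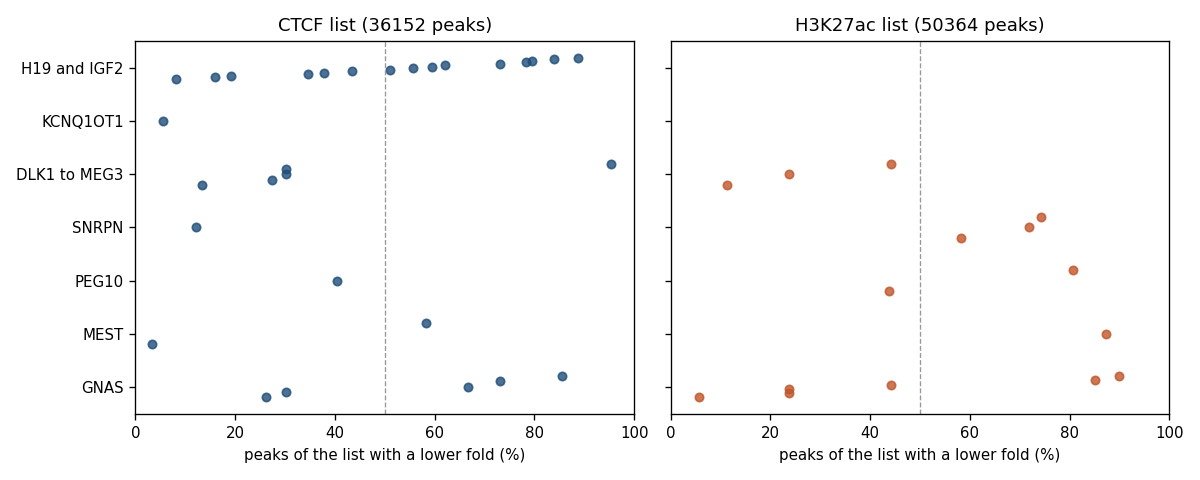
Position of each peak within its own list, for CTCF (left) and H3K27ac (right). The horizontal axis is the percent of peaks of that list with a lower fold enrichment, each point is 1 peak, small vertical offsets only separate points, and the dashed line is the middle of the list. Of the CTCF points 14 lie right of the line, and of the H3K27ac points 7.

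H19 is a long non-coding RNA and IGF2 a fetal growth factor. Their interval runs on chromosome 11 from 2.016 to 2.182 Mb, and the rule points to 2.020 to 2.025 Mb, upstream of H19, as the place where CTCF is known to bind. In DU145 this place held a group of 6 CTCF peaks, from 2019640 to 2024387, an extent of 4.75 kb. All 6 touched the window, and 5 had their summit in it. The summit of the outermost peak on the H19 side lay 220 bases before it. Upstream refers to a short model of H19: the RefSeq model of GRCh38.p14 is 6091 bases long, longer than the distance between the start of the interval and the window. By that length from the interval start, the summits at 3.78, 4.30 and 5.24 kb would fall inside the gene. Those at 7.51 and 8.25 kb would lie upstream of it. The summit at 6.04 kb is not settled, since the intervals are rounded to 1 kb.

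In order from the H19 side, the 6 peaks had fold enrichments of 17.2, 9.76, 11.2, 10.5, 14.1 and 15.5. The numbers of CTCF fragments at their summits, solved from the deposited values, were 59, 33, 38, 45, 48 and 53. The outermost peaks on either side were thus the highest of the group by both measures. The exact Poisson 95% interval was 22.7 to 46.3 for the lowest count and 44.9 to 76.1 for the highest. For the second highest, 53, it was 39.7 to 69.3, which contains the highest count and also the inner counts of 48 and 45. The order of these close counts, and so the lead of that outer peak over the inner ones, is not settled. Intervals of this kind cover counting error only. Neighbouring summits were 523, 938, 797, 1469 and 740 bases apart. Each of the 6 had a fold above the median of the CTCF list. None shared a base with an H3K27ac peak, against 14.2% of all CTCF peaks that do. The widened interval held no H3K27ac peak at all, so these are not 6 separate results. With so low a background, 0 of 6 does not set the group apart.

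**Figure D3:**
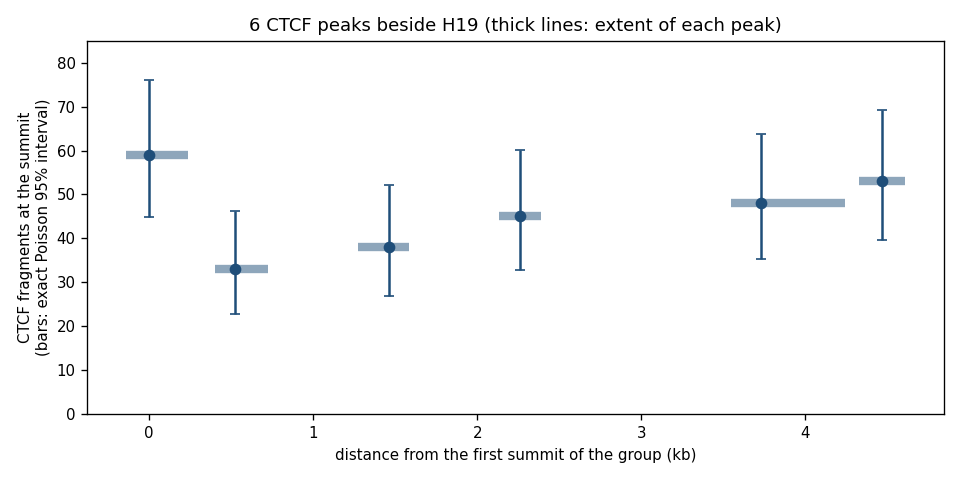
The 6 CTCF peaks at the place the rule calls upstream of H19. The horizontal axis is the distance in kb from the first summit, the vertical axis the number of CTCF fragments at the summit, points are summits, vertical bars exact Poisson 95% intervals and thick lines the extent of each peak. The summits hold 33 to 59 fragments and span 4.47 kb.

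Groups of this size were rare in the CTCF list. Summits no more than 2 kb from the next were joined, which put 12 of the 30 members in a group with another summit, against 11.0% of all CTCF peaks. Groups of 6 or more summits held 6 of the 30 members and 0.171% of all CTCF peaks. Most of the latter, 43 of the peaks, lay on contigs outside the assembled chromosomes. On the assembled chromosomes there were 3 such groups among 33685 groups and single summits. The others had 7 summits on chromosome 14 (106144031 to 106148056) and 6 on chromosome Y (58989655 to 58993998). Their median folds were 8.62 and 5.22, beside 12.6 for the group at H19.

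Toward IGF2 the CTCF peaks were wider apart and, for the most part, lower. The next summit, at 2058271, followed after 34.0 kb and was a single peak with a fold of 15.8 and 54 fragments (interval 40.6 to 70.5). The peaks at 2095519 to 2095702 and 2144616 to 2144776 had folds of 5.75 and 4.61, with 19 and 15 fragments. These are among the weak peaks of the list, with ranks 28861 and 32962 of 36152. The highest CTCF peak of the interval lay 4.11 kb before its end, at 2177734 to 2178188, with a fold of 19.2, 66 fragments (interval 51.0 to 84.0) and rank 4033. The 9 peaks outside the group had a median fold of 7.77, and 3 of them exceeded the list's median. A peak of 853 bases at 2172697 to 2173549, with a fold of 11.6, was the widest of all 30.

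No H3K27ac peak lay within the 206 kb of the widened H19 and IGF2 interval. The acetylation-free stretch around it ran from 1990500 to 2290414, 299.9 kb, and contained 18 CTCF summits, 60.0 per Mb. Stretches at least as long made up 3.40% of the 49758 gaps between neighbouring H3K27ac peaks, whose median was 4.08 kb. Long stretches met the other intervals too: the longest at each ran from 144.4 kb at DLK1 to MEG3 (7.36% of gaps at least as long) to 1633 kb at SNRPN (0.541%). These shares count gaps and not the bases in them. They therefore understate how often a locus lies in a gap of such length. The 6 summits of the group were 29.3 to 33.7 kb from the nearest H3K27ac peak. That peak, at 1990093 to 1990499, had a fold of 2.35 from 16 fragments and lay 5.50 kb beyond the widened edge, where it met a CTCF peak at 1990336 to 1990726 with a fold of 10.9. On the IGF2 side the outermost CTCF member, at 2194459 to 2194868, had a fold of 7.77. The next beyond the edge, at 2207939 to 2208201, had 11.2. An absent peak means that the signal did not pass the authors' threshold, not that the mark was absent.

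KCNQ1OT1 is a long non-coding RNA read antisense to KCNQ1, from a promoter inside that gene that acts as the control region of its cluster. Its interval, on chromosome 11 from 2.629 to 2.721 Mb, held almost nothing in either list. The single CTCF peak, at 2713662 to 2713828, had a fold of 4.32 and 14 fragments (interval 7.65 to 23.5), which ranks it 33951 of 36152. Its summit lay 7.28 kb inside the end of the interval, which is the promoter end of this gene. H3K27ac peaks numbered 0 over 132 kb, within an acetylation-free stretch of 235.1 kb. The nearest on the 2 sides were 74.0 and 69.1 kb from the interval, each with a fold of 3.83. The 2 intervals of chromosome 11 were thus alike in lacking acetylated regions and far apart in CTCF, with 72.8 peaks per Mb at H19 and IGF2 and 7.58 at KCNQ1OT1.

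DLK1 encodes a transmembrane protein of the Notch ligand family expressed from the paternal copy, and MEG3 a maternal long non-coding RNA. Their interval lies on chromosome 14 from 101.193 to 101.327 Mb. It held the strongest CTCF peak of all 30 members, at 101317306 to 101317998. This peak had a fold of 23.6, 94 fragments (interval 76.0 to 115.0) and rank 1714, and its summit was 9.37 kb before the end of the interval, where MEG3 ends. The other 4 were below the list's median. A pair 970 bases apart, with summits at 101293615 and 101294585, had folds of 6.90 and 5.18 and 23 and 17 fragments. These summits lay 33.4 and 32.4 kb before the end of the interval. The RefSeq model of MEG3 on GRCh38.p14 is 34919 bases long, so by that length both would fall inside the gene, near its start. No position of the MEG3 start on hg19 was used here.

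No CTCF peak lay in the 117197 bases between this pair and the next one on the DLK1 side. That other pair lay in the widened margin before DLK1, with folds of 6.90 and 6.61 and summits at 101174848 and 101176154. Between its summits lay a weak H3K27ac peak (101175119 to 101175498, fold 3.59, 14 fragments), at 0.271 and 0.656 kb from them and overlapping neither CTCF peak. Of the other H3K27ac peaks, 1 was at 101213663 to 101214362 with a fold of 3.14, and 1 at 101310409 to 101310760 with a fold of 4.31. All 3 acetylated regions were below the median fold of their list. The strongest CTCF summit was 6.88 kb from the last of them.

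SNRPN encodes a small nuclear ribonucleoprotein and its upstream exons include the imprinting centre of the Prader-Willi region. The interval lies on chromosome 15 from 25.069 to 25.224 Mb, and here the marks were far apart. The CTCF peak, at 25092232 to 25092498, had a fold of 5.03 from 32 fragments (interval 21.9 to 45.2), with a local background 2.29 times the genome-wide level of the list. A higher background lowers fold for a given number of fragments. The 3 H3K27ac peaks formed a row from 25200228 to 25201859, with folds of 8.14, 5.27 and 7.45 and 33, 21 and 31 fragments. All 3 exceeded the median of their list. They stood alone: the next H3K27ac peak was 1502 kb before the interval on one side and 413.2 kb after it on the other. The CTCF summit was 107.9 kb from the row.

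PEG10, a gene derived from a retrotransposon, and MEST, which encodes a hydrolase-like protein, are expressed from the paternal copy. They were the loci where CTCF and H3K27ac met. At PEG10, on chromosome 7 from 94.286 to 94.299 Mb, a CTCF peak (94285422 to 94285782, fold 8.19, 36 fragments) had its summit within 1 kb of the start of the interval. It touched the acetylated region before it (94284125 to 94285522, fold 10.6, 59 fragments) and the one after it (94285725 to 94286183, fold 4.29, 23 fragments). Its summit, at 94285530, was in neither and fell in the 202 bases between them, 8 bases from the edge of the first. The CTCF summit here thus sat in a short break between acetylated regions.

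At MEST, on chromosome 7 from 130.126 to 130.146 Mb, a CTCF peak covered the start of the interval, that of the gene whose RefSeq window is printed above. It ran from 130125803 to 130126144, entirely inside an H3K27ac peak from 130125494 to 130126862. The CTCF summit held 83 fragments (interval 66.1 to 102.9), the second highest number among the 30, but its fold was 11.0, with a local background 2.75 times the genome-wide level, the highest ratio among the CTCF members. The H3K27ac peak had a fold of 14.5 and 85 fragments, with a background of 1.55 times its genome-wide level. A further CTCF peak 4.79 kb into the gene was the weakest member, with a fold of 3.92 and 13 fragments (interval 6.92 to 22.2).

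GNAS encodes the stimulatory G protein alpha subunit and has several promoters in a row, of which the upstream ones are imprinted. Its interval lies on chromosome 20 from 57.415 to 57.486 Mb, and most of its acetylated regions lay beyond the last CTCF peak. The 5 CTCF peaks had summits −0.329, 12.9, 24.6, 30.5 and 41.2 kb from the start. Their folds in this order were 12.6, 14.1, 6.90, 17.8 and 6.40, from 51, 48, 23, 77 and 27 fragments. The first lay within 1 kb of the first start of the gene, whose RefSeq window with its motif match is printed above, and 3 of the 5 exceeded the list's median.

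Of the 6 H3K27ac peaks at GNAS, 5 lay beyond the last CTCF peak, from 57463852 to 57470968. The largest, 2700 bases wide at 57465382 to 57468081, had a fold of 16.8 and 69 fragments, the highest fold among the 15 acetylated members. Beside it the peak at 57463852 to 57464240 had a fold of 12.9 from 53 fragments, and the other 3 had folds from 2.91 to 4.31. The last CTCF summit, at 57456228, was 7.62 kb from this acetylated row. The remaining H3K27ac peak, at 57425422 to 57425840 with a fold of 3.59, was 2.06 kb from the CTCF summit at 57427898. None of the 5 CTCF peaks shared a base with an acetylated region, against 14.2% of all CTCF peaks. With so low a background, 0 of 5 does not set this interval apart.

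Across all intervals overlap of CTCF and H3K27ac was infrequent, as it was in the whole lists. A CTCF member shared at least 1 base with an H3K27ac peak in 2 of 30 cases, the peaks at the starts of PEG10 and MEST, against 14.2% of all CTCF peaks. The exact Clopper-Pearson 95% interval of the members' share, 0.818% to 22.1%, includes that background. Leaving out 1 interval moved the share between 3.45% without PEG10 (3.57% without MEST) and 13.3% without H19 and IGF2. In the other direction 3 of 15 H3K27ac members touched CTCF, against 10.1% of all H3K27ac peaks (interval of the members' share 4.33% to 48.1%). The median distance from a member's CTCF summit to the nearest H3K27ac peak was 30.3 kb (range 0 to 145.7), beside 22.3 kb in the whole list. Distances over 100 kb occurred for 8 of 30 members, against 21.6% of all CTCF peaks, and 7 of the 8 lay at H19 and IGF2. A summit within 1 kb of acetylation was found for 4 members, at PEG10, MEST and the margin before DLK1. The share of all CTCF peaks this close to acetylation was not computed, so this count has no background.

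**Figure D4:**
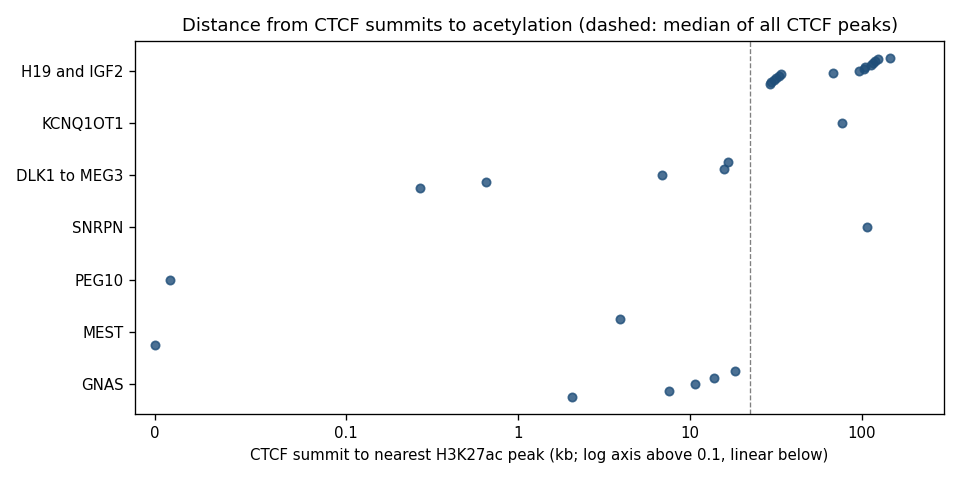
Distance in kb from each of the 30 CTCF summits to the nearest H3K27ac peak, by interval. The axis is logarithmic above 0.1 kb and linear below, each point is 1 CTCF peak, vertical offsets only separate points, and the dashed line is the median of all CTCF peaks, 22.3 kb. All points of H19 and IGF2 lie right of the line, and those of GNAS, MEST, PEG10 and DLK1 to MEG3 left of it.

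Local background differed between the intervals and enters every fold. With values rounded to 0.01 fragments, the genome-wide level was the background of 19 of the 30 CTCF members, against 30.9% of the whole list, and of 9 of the 15 H3K27ac members, against 30.9%. The median background of the CTCF members was 1.00 times that level at H19 and IGF2, 1.27 times at GNAS, 1.43 times at PEG10, 1.90 times at MEST and 2.29 times at SNRPN. Its part in the differences in fold and in peak number between intervals was not tested. CTCF members had 13 to 94 fragments at the summit (median 33, beside 45 over all CTCF peaks), and H3K27ac members 14 to 85 (median 21, beside 23).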

How the data were processed

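Chromatin immunoprecipitation libraries of DU145 cells, 1 for CTCF and 1 for H3K27ac, were used as peak lists. Per the submitters' processing notes, Bowtie, MACS2 and hg19 were used; the sources used here give no versions or settings. The columns the authors deposited are positions, a score, a fold enrichment (a linear ratio), and p-values and q-values as −log10. The score was 10 times the −log10 q cut to a whole number. Positions count from 1.

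Fragments at a summit and local background were solved jointly from fold and −log10 p (tolerance 0.002), with fragments scaled by 0.9115 for CTCF and 1 for H3K27ac, which solved 99.9945% and 100% of peaks. The solver was tested on simulated data. The most frequent background, also the lowest, is called the genome-wide level. Python 3.11.15, pandas 2.3.3 and scipy 1.17.1 were used. Autosomal densities are over the 2795 Mb between the outermost peaks.

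Peaks were named by rule: all of a mark where an interval had 5 or fewer, otherwise those with the highest fold, at a place the interval rule points to or nearest to a gene start, and others by range. The intervals, members and lists were chosen with earlier results of these data known. Other imprinted genes of these clusters, motifs under the peaks and marker genes of the cell line were not examined, since hg19 sequence and gene positions were not used here.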

Additional observations from a re-analysis of the deposited data

How the results depend on the processing

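For 6 results (the 2 numbers of peaks, the 2 median folds and the 2 numbers of overlapping peaks), 75 alternatives were computed, of which 33 were planned and 42, each leaving out 1 interval, were chosen after seeing the data. A number counted as kept within 1.5 times and a median within its order-statistic 95% interval (6.90 to 11.6 for CTCF, 3.59 to 10.6 for H3K27ac). By that rule 57 were kept and 18 moved. The number of CTCF peaks, 30, was 14 among peaks at or above the list's median fold and 15 without H19 and IGF2. The 15 H3K27ac peaks became 6 at a −log10 q of 10 or more, 7 among peaks at or above the median and 9 without GNAS. The median CTCF fold was 14.1 in the same restriction, and the median H3K27ac fold 11.7 at a −log10 q of 10 or more, as stricter lists give by construction. CTCF peaks that overlap H3K27ac, 2 in the report, were 1 with intervals not widened, at or above the median fold, with 0.5 of the peak covered, with the summit inside, and without PEG10 or MEST. They were 4 with H3K27ac within 1 kb and 5 with intervals widened by 50 kb. H3K27ac peaks that overlap CTCF, 3 in the report, were 5 with intervals widened by 50 kb and 1 at or above the median fold or without PEG10. No paired analysis was possible because each mark had 1 library. Peaks of 13 or 14 fragments are the least certain in rank.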

Other observations

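The stretch of chromosome 11 between the widened intervals of H19 and IGF2 and of KCNQ1OT1, 407 kb long, held 12 CTCF and 13 H3K27ac peaks, 29.5 and 31.9 per Mb, so acetylated regions absent from both intervals were present between them. Its CTCF peaks had a median fold of 17.5, above the 8.41 of the 30 peaks at the imprinted intervals, and the highest, at 2553991 to 2554342, had a fold of 31.8 from 110 fragments (rank 233 in the list). It lay 54.7 kb beyond the widened KCNQ1OT1 interval and shared no base with H3K27ac. The highest H3K27ac peak of the stretch, at 2419944 to 2421578, had a fold of 30.6 from 127 fragments and overlapped a CTCF peak. In all, 2 of the 12 CTCF peaks and 2 of the 13 H3K27ac peaks overlapped the other mark, against 14.2% and 10.1% in the whole lists.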
